A study of Homo sapiens with 9 samples.

Results

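The malate-aspartate shuttle is the route by which reducing equivalents of cytosolic NADH reach the mitochondrial matrix. It rests on a pair of malate dehydrogenases, a pair of aspartate aminotransferases and carriers of the inner mitochondrial membrane. MDH1 and GOT1 are the cytosolic malate dehydrogenase and aspartate aminotransferase, and MDH2 and GOT2 are their counterparts in the matrix. SLC25A11 exchanges malate for 2-oxoglutarate, and SLC25A12 (aralar) and SLC25A13 (citrin) exchange aspartate for glutamate. All 7 genes are transcribed in the nucleus and translated outside the mitochondrial matrix, so their mRNAs are cytosolic even where the protein is mitochondrial. Among them MDH2 is also the protein that was immunoprecipitated, so the mRNA of the precipitated protein is itself one of the members. Citrin is the aspartate-glutamate carrier of liver, and aralar is the form of brain and muscle.

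The data were enhanced cross-linking and immunoprecipitation (eCLIP) libraries from Huh7 cells, a human line derived from a hepatocellular carcinoma. In eCLIP, UV light joins proteins to the RNA they touch, the RNA is trimmed with RNase, and the nucleotide beside the start of each sequenced fragment marks the cross-link site. There were 3 libraries from immunoprecipitation with an antibody against endogenous MDH2 (MDH2 IP), 3 from a size-matched input taken from the lysate before immunoprecipitation (SMI), and 3 from immunoprecipitation with isotype-matched IgG (IgG IP). All 9 came from unmodified, UV-cross-linked cells, and the MDH2 IP and IgG IP libraries were amplified for 14 PCR cycles against 9 for SMI. The members were taken by name, as all exon and intron windows of the 7 genes, which were 7 of 35309 gene identifiers and 7882 of 15767969 windows of 50 nt in the table. Of the 7882 windows, 893 lay in exons and 6989 in introns. Nothing in the labels says whether the 3 libraries of a group came from separate cultures, so the p-values measure only the spread between these libraries.

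The stretches of the member mRNAs with most cross-link sites in the MDH2 IP libraries are printed first, since the results below turn on where in the mRNA the sites lay. For each member the window with the highest summed MDH2 IP count in exons was taken, together with its richer neighbour, and the 30 nt common to both are shown 5′ to 3′ on the strand of the gene (GRCh38). Capitals mark coding bases, and lower case marks untranslated bases.

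MDH2 exon 1, chr7:76048151-76048180, plus strand: cgctccagccATGCTCTCCGCCCTCGCCCG

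GOT2 exon 1, chr16:58734260-58734289, minus strand: tgtgtgtccgctcgccctctgctccgtcct

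GOT1 exon 1, chr10:99430528-99430557, minus strand: TCCGTCAGTCTTTGCCGAGGTTCCGCAGGC

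SLC25A11 exon 5, chr17:4937610-4937639, minus strand: gtgtggtttcttcctctgcggtaaaggact

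MDH1 exon 13, chr2:63606962-63606991, plus strand: CTTTTGAATTTCTTTCCTCTGCCtgactag

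SLC25A13 exon 8, chr7:96191149-96191178, minus strand: AACATGGAACTCATTAGAAAGATCTATAGC

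In MDH2, GOT2 and GOT1 the richest stretch lay in exon 1. The MDH2 stretch ran from the 5′ UTR across the start codon, the GOT2 stretch lay wholly in the 5′ UTR, and the GOT1 stretch lay at the beginning of the coding sequence. The SLC25A11 stretch lay in the 3′ UTR, the MDH1 stretch spanned the stop codon, and the SLC25A13 stretch was coding. Their GC content was 76.7% in MDH2, 66.7% in GOT2, 63.3% in GOT1, 50% in SLC25A11, 40% in MDH1 and 33.3% in SLC25A13. SLC25A12 had no exon window with more than 2 sites in an MDH2 IP library, and its richest window lay in an exon for which no position could be set, so no sequence is shown. The windows behind these stretches were thin. The MDH2 window held 31, 26 and 21 sites in the MDH2 IP libraries, 7, 15 and 13 in SMI and 1, 1 and 3 in IgG IP, and the SLC25A13 window held 5, 9 and 2 sites in MDH2 IP against 3, 5 and 8 in SMI.

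Depth differed by group. Summed over all windows, where a site is counted in up to 3 overlapping windows, the MDH2 IP libraries held 5899767 to 9482209 counts, the SMI libraries 8311027 to 9788461 and the IgG IP libraries 1631220 to 2942624. Levels are given as CPM, counts scaled to a total of 1000000 per library, with the library size scaled by the trimmed mean of M values (TMM). All 8 hepatic markers examined (ALB, AFP, APOB, APOA1, SERPINA1, TTR, FGB and TF) had sites, with summed levels of 5187 to 6640 CPM in MDH2 IP, against 5144 to 6474 in SMI and 2511 to 4739 in IgG IP. Another 7 markers, of immune, endothelial, stromal and basal epithelial cells, summed to 13.8 to 15.8 CPM in MDH2 IP, while SMI had 9.20 to 11.6 and IgG IP 5.52 to 10.8. The share of all window counts that lay in exons was 56.2% ± 3.31 (SD, n = 3) in MDH2 IP, beside 46.5% ± 3.01 in the input and 34.9% ± 3.75 with IgG, and each group lay apart from the others (exact two-sided permutation test, p = 0.1 for MDH2 IP against either control, the smallest that 3 libraries against 3 can give). This difference between the groups touches every comparison of exons with introns below, and also the whole-gene values, which sum both.

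Per kilobase of merged exon, the members fell into an upper and a lower set in the input. In the SMI libraries the exonic level was 18.2 CPM per kb for MDH2 (SD 0.394, n = 3), 16.9 (SD 2.71) for GOT1, 16.1 (SD 2.47) for GOT2, 9.34 (SD 0.636) for SLC25A13, 8.73 (SD 1.36) for SLC25A11, 4.65 (SD 0.944) for MDH1 and 0.176 (SD 0.025) for SLC25A12. The range of GOT1 overlapped those of MDH2 and GOT2, and SLC25A13 overlapped SLC25A11. The steps from GOT2 to SLC25A13, from SLC25A11 to MDH1 and from MDH1 to SLC25A12 exceeded the spread of the libraries. These values depend on the length used. Merged exons span 4990 nt in MDH1, beside 1296 nt in its canonical mRNA, 2471 beside 1692 nt in SLC25A11 and 3710 beside 3141 nt in SLC25A13. The place of MDH1 below both carriers was set on merged exons only. In SMI the coding sequence of MDH1 (nt 82 to 1083 of the canonical mRNA) held 121, 184 and 127 counts. That of SLC25A11 (nt 137 to 1078) held 94, 126 and 123, and that of SLC25A13 (nt 143 to 2167) held 162, 217 and 216. Relative to these lengths MDH1 did not lie below both carriers. Levels per kb of canonical mRNA were not computed. In MDH2 IP the levels per kb were 20.01, 19.6, 13.8, 7.72, 10.2, 4.53 and 0.111 in the same gene order, so that SLC25A11 stood above SLC25A13 there. SLC25A12, the aralar gene, had exonic counts of 4, 11 and 4 in MDH2 IP, against 8, 12 and 9 in the input, and its exons were too thin to test.

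**Figure D1:**
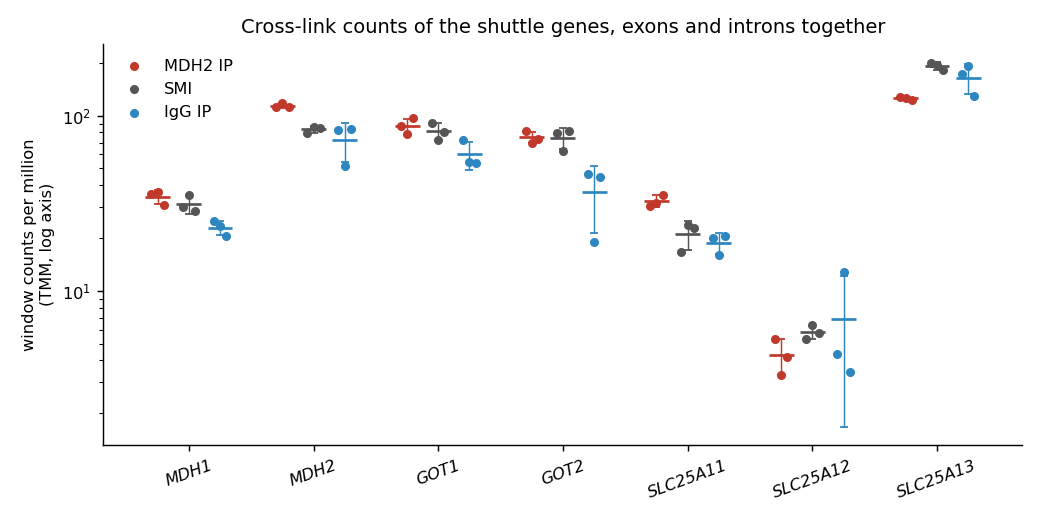
Level of each shuttle gene in every library. Each point is 1 library, the y axis is the TMM-scaled level in CPM over all exon and intron windows on a log axis, horizontal lines are group means and error bars are the SD of 3 libraries. MDH2 lay at 111 to 118 CPM in MDH2 IP and at 79.5 to 86.5 CPM in SMI, and SLC25A13 lay lower in all 3 MDH2 IP libraries than in all 3 SMI libraries.

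The first comparison asked whether the RNA of each gene, exons and introns together, took a larger part of the sites in MDH2 IP than in the input. More of an RNA and more cross-linking per molecule cannot be told apart in these counts. Among the matrix enzymes, MDH2 reached 1134, 850 and 689 window counts in MDH2 IP replicates 1 to 3, against 673, 818 and 840 in those of SMI and 228, 84 and 122 in those of IgG IP. As levels these were 111, 118 and 112 CPM in MDH2 IP, against 79.5, 86.5 and 84.9 in SMI and 82.4, 51.5 and 83.5 in IgG IP. All MDH2 IP libraries lay above all SMI and all IgG IP libraries. The log2 fold change of MDH2 against SMI was 0.42 (SE 0.119), a 1.34-fold higher level, with an adjusted p of 0.0251 in the edgeR quasi-likelihood test over 17056 genes. GOT2, the matrix aminotransferase, measured 81.3, 70.1 and 73.6 CPM in MDH2 IP and 79.1, 62.7 and 81.3 in SMI, and these overlapped (log2 fold change −0.01, with an interval of 1.96 SE on either side from −0.31 to 0.28). Its level in IgG IP was 46.3, 19.0 and 44.5 CPM, below every library of the other groups.

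Neither cytosolic enzyme passed the test against SMI. MDH1 measured 35.7, 36.4 and 30.8 CPM in MDH2 IP, while SMI had 30.0, 35.4 and 28.4 and IgG IP 24.9, 23.3 and 20.5, with a log2 fold change against SMI of 0.11 (SE 0.165, interval −0.21 to 0.44). GOT1 measured 86.6, 78.4 and 96.3 CPM in MDH2 IP, beside 90.7, 72.9 and 80.6 in the input and 72.7, 53.9 and 53.4 with IgG, with a log2 fold change against SMI of 0.07 (SE 0.139, interval −0.20 to 0.34). For both genes the MDH2 IP and SMI libraries overlapped, and the IgG IP libraries lay lowest.

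The carriers differed among themselves. SLC25A11 measured 30.5, 31.6 and 35.3 CPM in MDH2 IP, against 16.5, 23.8 and 22.7 in SMI and 19.9, 15.9 and 20.5 in IgG IP, and was 1.52-fold higher in MDH2 IP than in SMI (log2 fold change 0.60, SE 0.186, edgeR adjusted p = 0.0352). SLC25A13, the citrin gene, measured 128, 126 and 123 CPM in MDH2 IP, while SMI had 200, 193 and 181 and IgG IP 173, 191 and 130, and was the member that fell (log2 fold change −0.63, SE 0.113, edgeR adjusted p = 0.00387). Its MDH2 IP libraries lay below every library of both control groups. SLC25A12 measured 5.30, 3.32 and 4.21 CPM in MDH2 IP and 5.31, 6.34 and 5.76 in SMI, with a log2 fold change of −0.45 whose interval ran from −1.04 to 0.14.

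Against SMI, then, 2 of the 7 members were higher and 1 was lower at an adjusted p of 0.05, where 16.4% of all 17056 genes tested were higher and 17.9% were lower. The median log2 fold change was 0.07 over the members and −0.01 over all genes. Introns held 82.5% of the SLC25A13 counts in SMI, 23.6% of those of MDH2 and 0.772% of those of SLC25A11. In SLC25A11 exons of all transcripts are merged and take in parts of its canonical introns, which lowers that share. Over everything tested one by one, the median was −0.54 for introns and 0.47 for exons. How far the gene values followed from the intron content of a gene was not tested. The MDH2 call was lost when SMI replicate 1, SMI replicate 2, MDH2 IP replicate 1 or MDH2 IP replicate 2 was left out, with log2 fold changes of 0.37 to 0.46 in those fits (edgeR adjusted p 0.0540 to 0.115). The SLC25A11 call was lost without SMI replicate 1 or without any 1 of the MDH2 IP replicates (log2 fold change 0.45 to 0.67, edgeR adjusted p 0.0634 to 0.133).

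The second comparison set MDH2 IP against the IgG control. GOT2 was 2.10-fold higher (log2 fold change 1.07, SE 0.289, edgeR adjusted p = 0.0386) and SLC25A11 was 1.78-fold higher (0.83, SE 0.228, adjusted p = 0.0408), so that 2 of the 7 members were higher and none was lower, beside 4.64% of 15491 genes higher and 7.77% lower. MDH2 had a log2 fold change of 0.69 (SE 0.205, edgeR adjusted p = 0.0524), MDH1 of 0.62 (adjusted p = 0.0933) and GOT1 of 0.57 (adjusted p = 0.0753), with the MDH2 IP libraries above all IgG IP libraries for each of the 3 genes. SLC25A13 had a log2 fold change of −0.35 (adjusted p = 0.226) and SLC25A12 of −0.61 (adjusted p = 0.503). The median over the members was 0.62, beside 0.02 over all genes. With the replicate number as a block 5 members passed, where 2097 of 15491 genes were higher and 2232 lower. Both calls were lost without any 1 of the MDH2 IP libraries and without IgG IP replicate 2 or 3, and SLC25A11 was also lost without IgG IP replicate 1. Libraries scaled to their total counts gave 5 members higher against IgG IP, at a median over all genes that rose to 0.17, and of all genes called in that comparison 61.9% were higher under total counts beside 37.4% under TMM.

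IgG IP against SMI gave the background of the immunoprecipitation itself. GOT2 was lower in IgG IP (log2 fold change −0.99, SE 0.291, edgeR adjusted p = 0.0301), which was 1 of 7 members, beside 11.4% of 15708 genes lower and 16.4% higher. The other log2 fold changes were −0.18 for MDH2, −0.42 for MDH1, −0.41 for GOT1, −0.14 for SLC25A11, −0.20 for SLC25A13 and 0.24 for SLC25A12. The GOT2 call was lost without SMI replicate 1 or 3. The 3 comparisons share libraries pairwise, so their values are given side by side and not as support for each other.

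Exons and introns were then summed apart, since exons carry the mature mRNA and introns the unspliced RNA. No member passed in its exons against SMI (0 of 6 tested by edgeR, 0 at an unadjusted p under 0.05, 0 by DESeq2), where 8.48% of genes tested were higher and 10.5% lower. The exonic log2 fold changes were 0.14 for MDH2, −0.22 for GOT2, −0.03 for MDH1, 0.21 for GOT1, 0.22 for SLC25A11 and −0.27 for SLC25A13. These values are relative to the exons of all genes. Scaled to total counts, all of which include introns, the median over all genes rose to 0.44 and 3 members passed, MDH2 at 0.56, GOT1 at 0.64 and SLC25A11 at 0.64, where 28.6% of genes were higher. Against IgG IP no member passed in its exons by edgeR (1 at an unadjusted p under 0.05, 0 by DESeq2), beside 0.31% of genes higher and 1.77% lower, and 5 members passed when libraries were scaled to total counts, where 32.7% of genes were higher at a median of 0.78. For IgG IP against SMI the exons again gave 0 of 6 members by edgeR (2 at an unadjusted p under 0.05, 0 by DESeq2), beside 9.59% of genes higher and 5.98% lower.

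In introns, 2 members passed against SMI. The introns of MDH2 were higher in MDH2 IP (log2 fold change 0.58, SE 0.168, edgeR adjusted p = 0.0267) and those of SLC25A13 were lower (−0.50, SE 0.114, adjusted p = 0.0104), beside 18.1% of genes higher and 14.5% lower. These values are relative to the introns of all genes. Scaled to total counts the MDH2 introns gave 0.33 (adjusted p = 0.175) at a median over all genes of −0.23. As a share of the MDH2 counts, introns held 20.8% in MDH2 IP and 23.6% in SMI. Every MDH2 IP library lay below every SMI library in that share. In the fits without 1 library, 1 to 2 members passed in introns against SMI. The intronic log2 fold changes of GOT1, GOT2, MDH1 and SLC25A12 were −0.24, −0.22, −0.12 and −0.17. Against IgG IP 0 of 6 members passed in introns (2 at an unadjusted p under 0.05, 0 by DESeq2), beside 1.75% of genes higher and 4.14% lower. For IgG IP against SMI the introns of GOT2 were lower (log2 fold change −0.93, SE 0.311, edgeR adjusted p = 0.0426), which was 1 of 6 members (2 at an unadjusted p under 0.05, 1 by DESeq2), beside 18.5% of genes higher and 12.6% lower. That call was lost without SMI replicate 1 or 3 and without IgG IP replicate 1 or 2. SLC25A12 was too thin to test in exons, and SLC25A11, with 17 intron windows, was too thin to test in introns. The 8 canonical exons of SLC25A11 are merged into 5, so parts of its canonical introns were counted as exon.

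**Figure D2:**
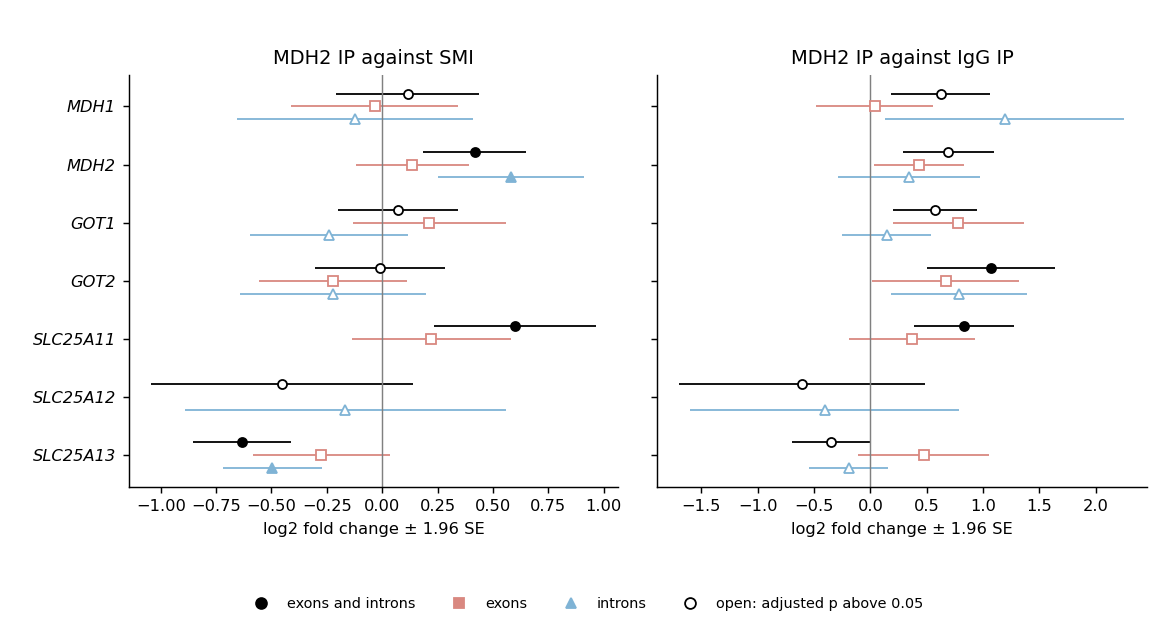
Fold change of each shuttle gene in MDH2 IP against SMI (left) and against IgG IP (right). The x axis is the log2 fold change, bars span 1.96 SE on either side, circles are all windows of a gene, squares its exons and triangles its introns, and open symbols did not pass an adjusted p of 0.05. Against SMI the filled symbols are MDH2 (gene and introns), SLC25A11 (gene) and SLC25A13 (gene and introns), and against IgG IP they are GOT2 and SLC25A11 (gene).

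Single exons and introns showed where along each gene the MDH2 IP libraries differed from the input. Of 75 member exons with counts 48 were tested against SMI, and 4 were higher and 0 lower. All 4 were first exons, of MDH2, GOT2, GOT1 and SLC25A11. Among all single exons 13.6% were higher and 2.89% lower, and among first exons alone 27% were higher. MDH2 exon 1 held 134, 154 and 92 counts in MDH2 IP, beside 55, 68 and 67 in the input and 20, 12 and 12 with IgG, with a log2 fold change against SMI of 1.18 (SE 0.271, edgeR adjusted p = 0.00707). GOT2 exon 1 held 80, 56 and 70 counts in MDH2 IP, against 17, 31 and 42 in SMI and 13, 3 and 0 in IgG IP, with a log2 fold change of 1.39 (SE 0.345, adjusted p = 0.0105). In both genes every MDH2 IP library exceeded every SMI library in raw count.

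GOT1 exon 1 held 94, 94 and 85 counts in MDH2 IP, while SMI had 47, 61 and 40 and IgG IP 25, 7 and 6 (log2 fold change against SMI 1.07, SE 0.298, edgeR adjusted p = 0.0191). SLC25A11 exon 1 held 127, 112 and 105 counts in MDH2 IP, beside 60, 69 and 85 in the input and 25, 11 and 16 with IgG (0.87, SE 0.259, adjusted p = 0.0257). In these 2 exons too the MDH2 IP libraries all lay above the SMI libraries. The remaining first exons that were tested did not pass. MDH1 exon 1 held 22, 29 and 21 counts in MDH2 IP against 16, 20 and 11 in SMI (0.80, edgeR adjusted p = 0.227), and SLC25A13 exon 1 held 15, 10 and 24 against 8, 23 and 10 (0.49, adjusted p = 0.578). The median log2 fold change of all first exons tested was 0.79, of all single exons 0.47 and of all single introns −0.54, so the values of the members are to be read against these and not against 0.

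The first-exon calls did not rest equally on the libraries. MDH2 exon 1 passed in all 6 fits that left out 1 library, with log2 fold changes of 0.97 to 1.37. GOT2 exon 1 passed in 5 of 6, all but the fit without SMI replicate 1 (1.16, edgeR adjusted p = 0.0583), and GOT1 exon 1 in 4 of 6, lost without SMI replicate 1 (1.11, adjusted p = 0.0620) or SMI replicate 3 (0.91, adjusted p = 0.0624). SLC25A11 exon 1 passed in 3 of 6, lost without SMI replicate 1, SMI replicate 2 or MDH2 IP replicate 3 (0.80 to 0.83, adjusted p 0.0574 to 0.0939). Over all members 3 exons and introns passed without SMI replicate 1 and 8 without MDH2 IP replicate 1, beside 13 with every library (4 higher and 9 lower, where 9.23% of all exons and introns tested were higher and 11.9% lower). Calls over all genes also fell, from 5861 of 17056 with every library to 3312 of 16579 without SMI replicate 1 and 3885 of 16375 without MDH2 IP replicate 1. With the replicate number as a block, which pairs MDH2 IP and SMI libraries of the same number, 23 exons and introns passed in place of 13, and over all exons and introns the calls rose to 14.3% higher and 17.1% lower. The block added MDH2 exon 3 (0.52, edgeR adjusted p = 0.0477), MDH2 intron 9 (1.17, adjusted p = 0.0294) and GOT1 exons 3 and 6 (0.92 and 0.71) among the higher ones, and MDH2 intron 2 (−0.86), GOT2 exon 9 (−0.43), GOT1 introns 1 and 7 (−0.65 and −0.76) and SLC25A13 introns 12 and 15 (−0.96 and −1.78) among the lower ones.

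The exon numbers are those of the count table, in which exons of all transcripts of a gene are merged, so an exon can be longer than that of the main mRNA. Exon 1 of GOT1 (chr10:99430448-99430624) is as long as the first exon of its canonical mRNA, 177 nt, and that of GOT2 (chr16:58734140-58734342) is slightly longer. Exon 1 of MDH2 (chr7:76048051-76048522) takes in 351 nt beyond the 121 nt of the canonical first exon, and exon 1 of SLC25A11 (chr17:4938769-4940053) is 1285 nt of a gene with 2471 nt of merged exon, beside 231 nt in the canonical mRNA. The SLC25A11 value therefore covers several exons and the retained introns between them.

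None of the later exons of the members passed against SMI. The last exon of MDH2, exon 10, held 219, 124 and 116 counts in MDH2 IP against 107, 147 and 170 in SMI, with a log2 fold change of 0.25. GOT2 exon 9, which carries the 3′ UTR, held 301, 141 and 151 against 257, 262 and 340 (−0.42, edgeR adjusted p = 0.185). Within MDH2 the log2 fold changes of exons 2 to 10 ran from −0.44 in exon 5 to 0.59 in exon 7, all below that of exon 1. In SLC25A13, by contrast, exons 5 and 10 had larger values than exon 1 (0.64 and 0.78, edgeR adjusted p = 0.498 and 0.452).

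Among member introns with counts 33 of 78 were tested against SMI, and 9 were lower and 0 higher, where 20.1% of all single introns were lower and 5.21% higher. Of the 9, 7 belonged to SLC25A13 (introns 2, 3, 4, 5, 6, 10 and 16), with log2 fold changes from −1.51 in intron 10 to −0.71 in intron 4. The largest of its counts lay in intron 4, with 198, 104 and 131 in MDH2 IP and 256, 232 and 294 in SMI. The others were GOT1 intron 2 (46, 42 and 27 counts against 96, 55 and 113, log2 fold change −1.05, edgeR adjusted p = 0.0311) and GOT2 intron 7 (21, 12 and 18 against 37, 38 and 57, −1.19, adjusted p = 0.0373). Most of these calls depended on single libraries. Of the 6 fits that left out 1 library, SLC25A13 introns 5 and 16 passed in all 6. SLC25A13 intron 6 passed in 5, intron 3 in 4, intron 10 in 3 and introns 2 and 4 in 2 each. GOT1 intron 2 and GOT2 intron 7 each passed in 2 of 6. MDH2 introns went both ways. Intron 9 held 40, 40 and 22 counts in MDH2 IP against 12, 15 and 24 in SMI (1.16, edgeR adjusted p = 0.0539), and intron 2 held 64, 32 and 22 against 65, 68 and 95 (−0.85, adjusted p = 0.0605).

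**Figure D3:**
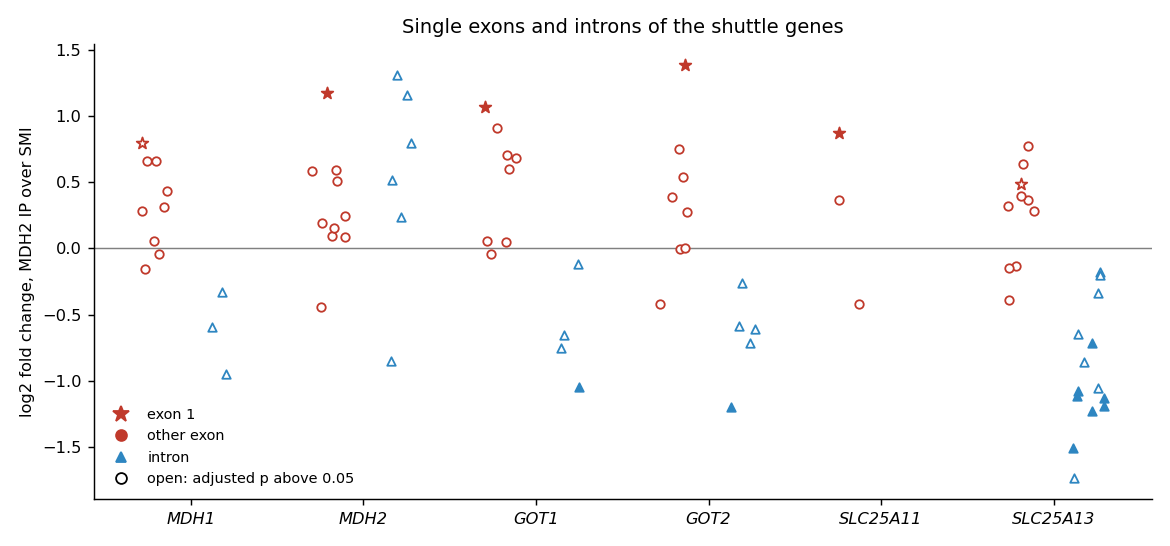
Single exons and introns of the shuttle genes, MDH2 IP against SMI. Each symbol is 1 tested exon or intron in the column of its gene (stars are exon 1, circles other exons, triangles introns, with sideways scatter for legibility), the y axis is the log2 fold change, and open symbols did not pass an adjusted p of 0.05. The 4 filled symbols above 0 are exon 1 of MDH2, GOT1, GOT2 and SLC25A11, and the 9 filled symbols below 0 are introns.

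Single exons and introns were also tested against IgG IP. Of 39 member exons tested, 7 were higher and 0 lower, beside 8% of all single exons higher and 0.71% lower and 6.64% of first exons higher. There were 5 in MDH2 (exons 1, 4, 6, 9 and 10), 1 in GOT1 (exon 6) and 1 in GOT2 (exon 9). Against IgG IP the median log2 fold change was 0.85 over all single exons, 0.69 over first exons and −0.42 over single introns. The member values below are to be read against these medians and not against 0. MDH2 exon 1 had a log2 fold change of 1.22 (SE 0.367, edgeR adjusted p = 0.0448) and MDH2 exon 10 of 1.18 (SE 0.356, adjusted p = 0.0448). MDH2 exon 6 held 71, 39 and 35 counts in MDH2 IP against 2, 3 and 3 in IgG IP (2.16, adjusted p = 0.0411), and GOT2 exon 9 held 301, 141 and 151 against 23, 5 and 26 (1.47, adjusted p = 0.0373). Without a replicate block, exon 1 of MDH2 was the one member exon past the threshold against both controls, while the first exons of GOT2 (1.90, adjusted p = 0.0609), GOT1 (1.06, adjusted p = 0.118) and SLC25A11 (0.85, adjusted p = 0.132) did not pass against IgG IP. Of 22 introns tested against IgG IP 1 was lower, SLC25A13 intron 5 (−1.02, edgeR adjusted p = 0.0437), and 0 were higher, beside 9.98% of all single introns lower and 0.632% higher. Of these 8 calls, in a table where 4.35% of exons and introns were higher and 5.3% lower, none was kept in all fits that left out 1 library. MDH2 exon 1 was lost in all 6 (log2 fold change 1.15 to 1.53, edgeR adjusted p 0.0501 to 0.125), and without MDH2 IP replicate 1 or 2 no member exon or intron passed, beside 13 without IgG IP replicate 1, 1 without MDH2 IP replicate 3 or IgG IP replicate 2, and 4 where IgG IP replicate 3 was left out. Calls over all genes were 1922 with every library, 359 and 669 without MDH2 IP replicates 1 and 2, and 1632 without IgG IP replicate 1.

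The window test looked for enrichment at the scale of 50 nt, calling a window enriched where its adjusted p was 0.05 or less and its level at least doubled, a log2 fold change of 1 or more. Only 38 member windows held enough counts to be tested against SMI, 28 in MDH2, 6 in GOT2 and 4 in GOT1. The edgeR test enriched 0 of them (10 at an unadjusted one-sided p under 0.05, 0 by DESeq2), beside 3.78% of all 51105 windows tested. Of the 38, 22 had a log2 fold change above 0. The window nearest the threshold was the GOT2 exon 1 window printed above, with 23, 13 and 16 sites in MDH2 IP, against 4, 5 and 7 in SMI and 1, 1 and 0 in IgG IP (log2 fold change 1.49, SE 0.414, edgeR adjusted p = 0.0567). Its neighbour towards the transcription start held 14, 10 and 10 against 2, 2 and 3 in SMI (2.03, adjusted p = 0.0653). With the replicate number as a block both of these windows passed, at adjusted p 0.0189 and 0.0437, where 6.9% of all windows were enriched. The MDH2 exon 1 window printed above had a log2 fold change of 0.96 (edgeR adjusted p = 0.228). Scaled to total counts 11 member windows passed, but so did 19.1% of all windows, whose median log2 fold change rose from 0.02 to 0.53. Against IgG IP 21 windows were tested and 0 were enriched (5 at an unadjusted p under 0.05, 0 by DESeq2), beside 0.148% of all windows, and 4 passed with libraries scaled to total counts, at 6.71% of all windows and a median of 0.93.

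**Figure D4:**
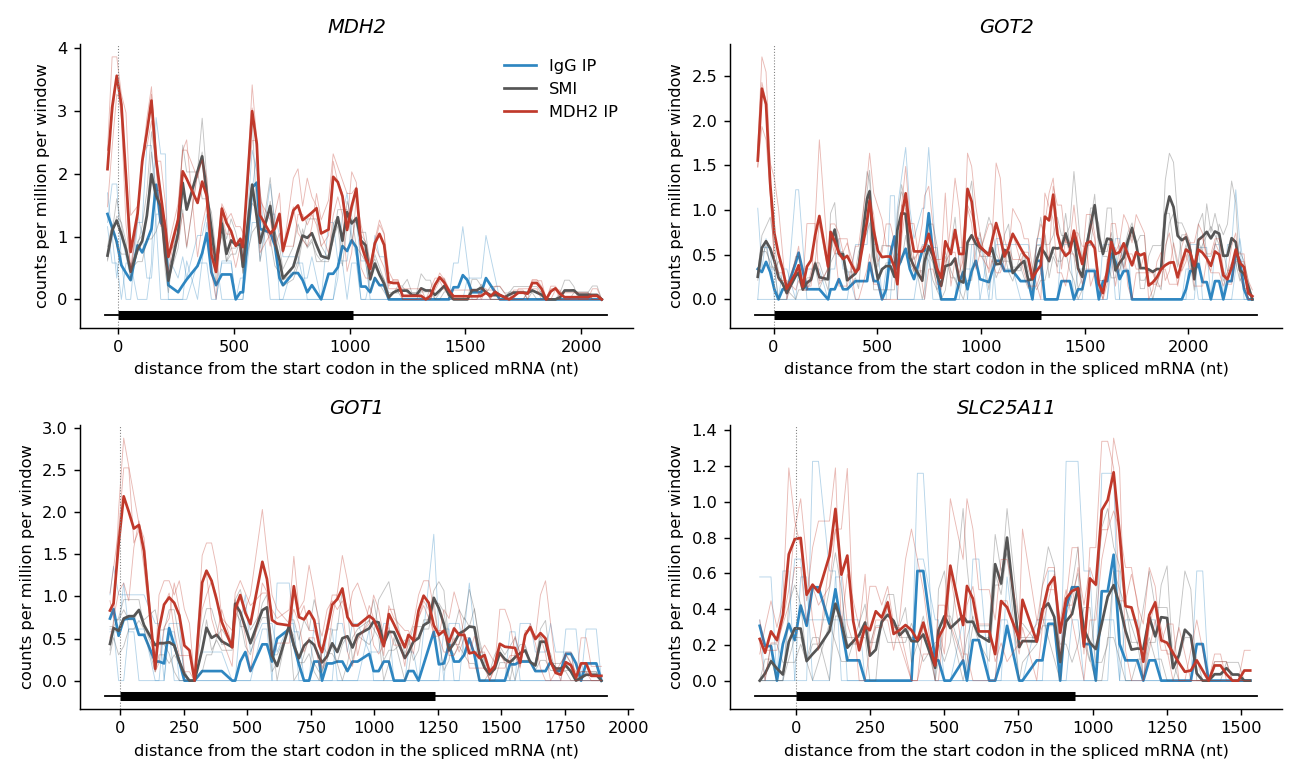
Sites along the spliced mRNAs of MDH2, GOT2, GOT1 and SLC25A11. The x axis is the distance from the start codon in nt, and the y axis is the level of each window in CPM. Here CPM is scaled to the total window counts of each library, without TMM. That scaling raised the median log2 fold change over all tested windows against both controls. The heights of MDH2 IP over SMI and IgG IP therefore include this shift. Thick lines are means of 3 libraries, thin lines single libraries, and the black bar below marks the coding sequence. In MDH2 and GOT1 the highest mean of MDH2 IP lay near the start codon. In GOT2 it lay in the 5′ UTR, at nt 33 of an mRNA whose coding sequence starts at nt 89. In SLC25A11 it lay in the 3′ UTR, at nt 1208, where the coding sequence ends at nt 1078.

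The share of a gene's counts in a given place does not depend on how libraries are scaled. For these shares the exact permutation test of 3 libraries against 3 cannot give a p below 0.1, and over the 40 comparisons made the lowest adjusted p was 0.286, so no share passed. The share of exonic counts in the first exon of MDH2 was 15.1%, 22.9% and 16.7% in MDH2 IP, while SMI had 10.9%, 10.6% and 10.5% and IgG IP 13.4%, 19.4% and 18.5%. Every MDH2 IP library lay above every SMI library, while MDH2 IP and IgG IP overlapped. GOT1 gave a mean of 20.5% ± 3.45 (SD, n = 3) in MDH2 IP, beside 13.5% ± 1.74 in the input and 25.9% ± 2.30 with IgG, so that MDH2 IP lay between the controls with no overlap with either, and 7.04% of 4545 genes likewise had every MDH2 IP library below IgG IP. GOT2 gave 14.2% ± 3.65 in MDH2 IP, against 5.51% ± 1.92 in SMI and 9.60% ± 8.43 in IgG IP. These 3 members had the MDH2 IP libraries all above SMI, beside 27.8% of 9461 genes with enough counts. The shares of SLC25A11 (48.1% against 37.4%), MDH1 (11.6% against 7.56%) and SLC25A13 (6.405% against 4.22%) overlapped between MDH2 IP and SMI.

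Counts were also split by region of the canonical mRNA. The 5′ UTR of MDH2 held 8.29%, 11.02% and 10.1% of the counts placed on the mRNA in MDH2 IP and 5.10%, 5.25% and 4.85% in SMI. For GOT2 the mean was 11.4% ± 1.87 (SD, n = 3) in MDH2 IP against 3.59% ± 0.852 in SMI, and for SLC25A11 9.55% ± 2.98 against 3.94% ± 0.475. For GOT1, whose first-exon share did not overlap, the 5′ UTR share ran from 4.70% to 7.12% in MDH2 IP and overlapped the 3.49% to 4.87% of SMI (exact two-sided permutation p = 0.3). In MDH2, GOT2 and SLC25A11 the MDH2 IP and IgG IP libraries overlapped. The GOT1 share in IgG IP was 9.71%, 10.7% and 9.52%, above every MDH2 IP library, though on 10, 3 and 2 counts (exact two-sided permutation p = 0.1). The 5′ UTR share was not computed over all genes, so these values are a description of the members alone. The last exon of GOT2 held 38.2% ± 4.92 of its exonic counts in MDH2 IP against 53.1% ± 2.73 in SMI, with every MDH2 IP library below every SMI library, as in 30.6% of all genes.

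Intronic shares were lower in MDH2 IP than in SMI for 4 members without overlap, beside 45.4% of 11117 genes. These were MDH2 (20.8% ± 0.862 against 23.6% ± 1.65), GOT1 (32.7% ± 3.50 against 51.3% ± 8.19), GOT2 (15.0% ± 0.695 against 21.8% ± 2.23) and SLC25A13 (71.7% ± 4.32 against 82.5% ± 2.29; SD, n = 3 in each group). Of the 4, MDH2 had the smallest difference. SLC25A11 ran the other way, at 4.35% ± 1.13 against 0.772% ± 0.721, which 3.98% of genes did, though on few intronic sites. Against IgG IP the same 4 members were lower without overlap, beside 66.1% of genes. SLC25A12, on few sites, also lay mostly in introns, at 77.1% in MDH2 IP and 82.1% in SMI.

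**Figure D5:**
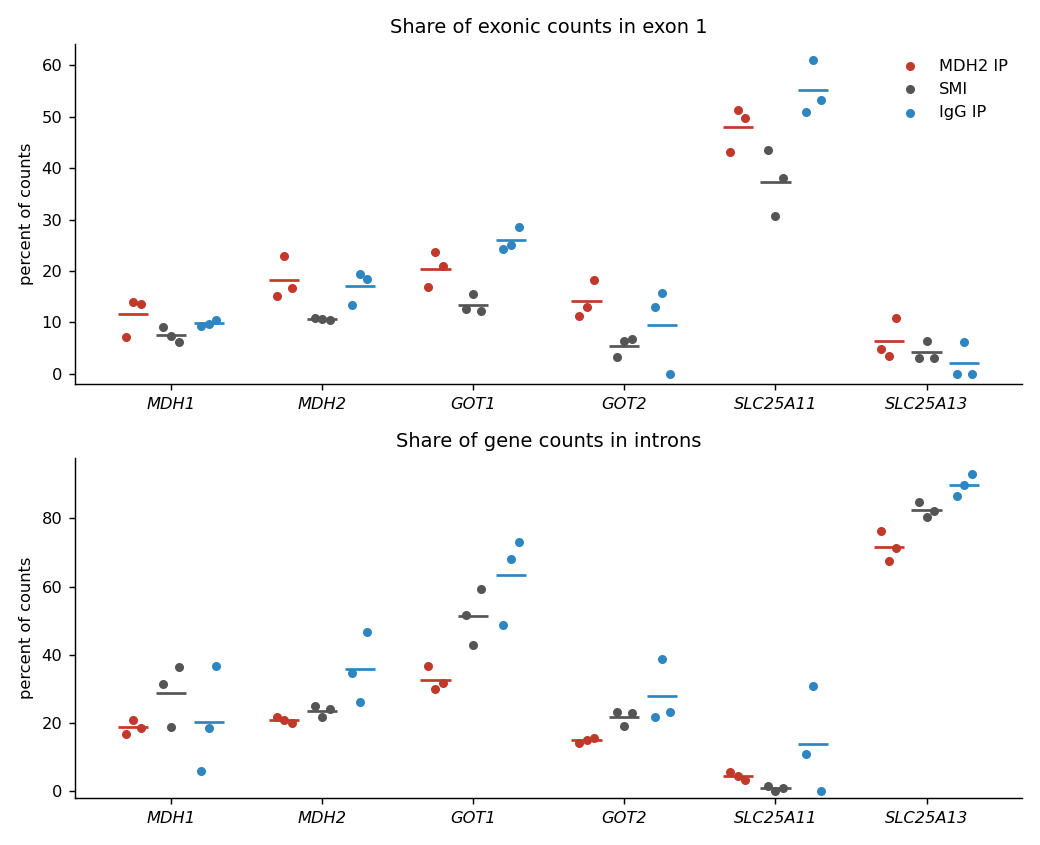
Share of each shuttle gene's exonic counts in exon 1 (top) and share of its counts in introns (bottom). Each point is 1 library, the y axis is the share in percent, and horizontal lines are group means. The MDH2 IP points lay above all SMI points for exon 1 of MDH2, GOT1 and GOT2, and below all SMI points for the introns of MDH2, GOT1, GOT2 and SLC25A13.

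Around the shuttle, a list of 24 other genes of malate, aspartate, glutamate and NADH metabolism was read from the same gene test. Against SMI 19 were tested and 4 were higher and 4 lower, beside the 16.4% and 17.9% of all genes given above, with a median log2 fold change of 0.20 over the list and −0.01 over all genes. Higher were the mitochondrial carriers SLC25A22 for glutamate (log2 fold change 1.23, SE 0.189, edgeR adjusted p = 0.00225), SLC25A10 for dicarboxylates (1.08, adjusted p = 0.00761) and SLC25A1 for citrate (0.67, adjusted p = 0.0341), together with PC, the pyruvate carboxylase that forms oxaloacetate (0.38, adjusted p = 0.0296). Among the lower ones were GPD2, the mitochondrial glycerol phosphate dehydrogenase of the other NADH shuttle (−0.73, edgeR adjusted p = 0.0041), ME1, the cytosolic malic enzyme (−0.74, adjusted p = 0.0121), and GPD1L (−0.59, adjusted p = 0.0336). With the replicate number as a block 14 of the list passed, 8 higher and 6 lower, where the calls over all genes also rose, to 27.3% higher and 29.4% lower.

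Against IgG IP, SLC25A1 (0.87, edgeR adjusted p = 0.0193) and CS, the citrate synthase (0.72, adjusted p = 0.0491), were higher and PC was lower (−0.64, adjusted p = 0.0217). PC, SLC25A10 and SLC25A22 were also higher in IgG IP than in SMI, by log2 fold changes of 1.11, 1.25 and 1.81 (edgeR adjusted p 0.000323, 0.00631 and 0.000696), and the group mean of each was higher in IgG IP than in MDH2 IP, with SLC25A22 at 32.2 CPM in MDH2 IP, while SMI had 13.5 and IgG IP 47.1. None of the shuttle genes passed as higher in IgG IP than in SMI. The list counts without 1 library ranged from 5 to 7 against SMI, with 5 when SMI replicate 1 was left out, and from 0 to 3 against IgG IP, with 0 without MDH2 IP replicate 1 or IgG IP replicate 2 and 1 without MDH2 IP replicate 2 or 3. Over all genes 3312 to 5110 were called against SMI and 359 to 1632 against IgG IP in those fits.

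The genes whose levels followed MDH2 most closely over the 9 libraries were RBM15B, ALAS1 and PGD, at Euclidean distances of 0.288, 0.329 and 0.347 between centred log2 CPM values, where the median distance of the 4131 protein-coding genes of similar level was 1.54. MDH2 itself averaged 6.83 log2 CPM in MDH2 IP, beside 6.39 in the input and 6.15 with IgG, and RBM15B averaged 6.21, 5.92 and 5.57. Reads from near-identical copies could also reach or leave the members, since alignments to up to 10 places were kept. Of 7 processed pseudogenes named for the members, all of MDH1 or GOT2, 3 had any count, 29 over all 9 libraries and at most 9 in a library. Genes annotated on the other strand overlap parts of MDH1 (WDPCP), SLC25A12 (HAT1) and SLC25A11 (RNF167), and the part their reads play was not tested.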

How the data were processed

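The files hold eCLIP data of Huh7 cells. The authors removed PCR duplicates by unique molecular identifier, trimmed with cutadapt, aligned to GRCh38 with STAR (reads with more than 10 alignments dropped) and took the nucleotide next to each alignment start as the cross-link site. With htseq-clip they made windows of 50 nt in steps of 20 nt over the exons and introns of GENCODE and over tRNA genes, and deposited raw counts of sites per window and library.

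Counts were summed here per gene, over its exons, over its introns and per single exon or intron, and tested 2 groups at a time with the edgeR quasi-likelihood test (edgeR 4.0.16, R 4.3.3, TMM, library size over all windows), two-sided, with at least 10 counts in 3 libraries and Benjamini-Hochberg adjustment over everything tested. SE is the log2 fold change over the root of F. Windows were tested one-sided, with each p multiplied by how many tested windows overlapped in that exon or intron. A feature was called at an adjusted p of at most 0.05. On simulated 4-fold changes against SMI the tests recovered 90.5% of 200 genes, 91.5% of exon sums, 92% of intron sums, 75.5% of single exons and introns and 96.5% of windows. False calls numbered 20, 15, 10, 9 and 8 in the same order. The members called higher per gene differed by 1.34-fold to 2.10-fold, and recovery at such sizes was not simulated. Shares use the exact permutation test, beside genes with at least 20 counts in each library. DESeq2 1.42.0, other scalings, filters and left-out libraries were alternatives. The intron sums of IgG IP against SMI and their alternatives were added after the data had been seen.

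The window positions were rebuilt from the window numbers and merged exons of a later GENCODE release, in which 434 of 434 MDH1 windows, 704 of 704 of MDH2, 1017 of 1017 of GOT1, 640 of 641 of GOT2, 127 of 133 of SLC25A11, 274 of 274 of SLC25A12 and 4679 of 4679 of SLC25A13 fell inside their feature. Positions, regions and the richest stretches were chosen after the counts had been seen. The named genes are the 7 members whatever their values, the exons and introns past the threshold, the listed pathway genes past it (1 is not reported here), the richest window of each member and the 3 genes closest to MDH2. The members and lists were chosen with earlier results of these data known. Over all genes, same-numbered MDH2 IP and SMI libraries deviated together (correlations of 0.13, 0.47 and 0.49 in replicates 1, 2 and 3), so for these groups the replicate block is given where it changes a call. Replicates differed beyond sampling noise (chi-square per degree of freedom of 6.70 or more), and 96.57% of 34950 Ensembl identifiers matched a gene name. No sample column was left out.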

Additional observations from a re-analysis of the deposited data

How the results depend on the processing

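Of the counts of member or pathway calls, 153 values under alternatives lay within 1.5 times the main count and 61 did not. Without a filter on low counts 1 member passed per gene against SMI, 4 against IgG IP, 2 in exons and 2 in introns for IgG IP against SMI, and 6 pathway genes passed against IgG IP. Over all genes 3267 of 34427 were then higher and 3333 lower against SMI, and 1681 of 32519 higher and 1084 lower against IgG IP. Scaled to total counts, 5 members passed per gene against IgG IP, 3 in exons against SMI, 5 in exons against IgG IP, 2 in exons for IgG IP against SMI and 1 in introns against SMI, and 11 member windows against SMI and 4 against IgG IP. With all 9 libraries in one fit, 1 member passed in introns against SMI and 5 pathway genes against IgG IP, where 882 of 15491 genes were higher and 1933 lower. Non-overlapping windows left 0 members per gene and 0 in introns for IgG IP against SMI, where 2388 of 13067 genes were higher and 1361 lower. DESeq2 size factors within edgeR enriched 1 window against SMI, and two-sided p-values 2, the cause of which was not tested. The replicate block gave 14 pathway genes, 23 exons and introns and 2 windows against SMI, and changed no call of a member per gene there. Between IgG IP and the other groups same-numbered libraries deviated together less closely than MDH2 IP and SMI (correlations −0.03 to 0.37, with 2 of 3 libraries closest to their own number). There the block gave 5 members per gene, 2 in exons and 9 pathway genes against IgG IP. Over all 15491 genes it called 2097 as higher and 2232 as lower, beside 719 and 1203 without it. For IgG IP against SMI the block gave 2 members per gene, 2 in exons and 2 in introns. There 3171 of 15708 genes were higher and 3055 lower with the block, beside 2578 and 1788 without it. Among single exons and introns against IgG IP that block gave 9 calls in place of 8, adding GOT2 exon 1 (2.05, edgeR adjusted p = 0.0333) and GOT1 exon 3 (2.91, adjusted p = 0.0462) and losing MDH2 exon 4 (2.60, adjusted p = 0.0652), with 5.01% of all exons and introns higher and 6.79% lower. With blocks in both comparisons, MDH2 exon 1, GOT2 exon 1 and GOT1 exons 3 and 6 passed against both controls. Leaving out 1 library gave, against SMI, 1 to 3 members per gene, 5 to 7 pathway genes, 1 to 2 members in introns and 3 to 12 exons and introns. Over all genes 3312 to 5110 were called in those fits, beside 5861 with every library. Against IgG IP leaving out 1 library gave 0 to 2 members per gene, 0 to 3 pathway genes, 0 to 1 member in exons and 0 to 13 exons and introns. For IgG IP against SMI it gave 0 to 1 member per gene, 0 to 1 in exons and 0 to 1 in introns. Over all genes 359 to 1632 were called against IgG IP, beside 1922 with every library. The calls for IgG IP against SMI were 2194 to 3916, beside 4366. First-exon shares without overlap against SMI numbered 3 to 5 members (5 without MDH2 IP replicate 1). Of the single gene values 13 changed sign, all of them uncalled. GOT2 against SMI became 0.015 with DESeq2 size factors, 0.083 with total counts, 0.016 with DESeq2, 0.015 with all 9 libraries, 0.11 with non-overlapping windows, and −0.13 to 0.056 over the fits without 1 library. GOT1 against SMI ran from −0.013 to 0.16 over those fits, and without IgG IP replicate 2 signs turned in ranges of −0.89 to 0.17 for SLC25A12 against IgG IP, −0.54 to 0.55 for SLC25A12 and −0.28 to 0.0044 for MDH2, both for IgG IP against SMI. The depth of IgG IP, 1631220 to 2942624 window counts, limits every comparison with it, and the thin exons of SLC25A12 and most single windows could not be tested.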
